A study of Mus musculus with 13 samples.

Results

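Nnat, Peg3 and 8 further imprinted genes (Mest, Plagl1, Zim1, Ndn, Igf2, H19, Dlk1 and Grb10) were followed across 13 microarrays of mouse epididymal fat. The genes were chosen by name, with earlier results of these data known. Nnat is among them because it had the deepest fall of all genes after the glycolipid α-galactosylceramide (αGalCer) in wild type fat. A gene was represented by its probe set annotated to that gene alone, and where there were several, by the set chosen for the highest mean over the 13 arrays. This gave 9 of the 10 genes a value, out of 18818 genes named on the array. H19 was not analysed here, as no probe set was annotated to H19 alone.

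The mice were males on a C57Bl/6J background, either wild type (C57/BL6) or of the strain B6.129S6-Cd1d1/Cd1d2tm1spb/J, which lacks CD1d (CD1d-/-). CD1d presents lipids to natural killer T (NKT) cells, and αGalCer bound to CD1d activates these cells. All mice started at 6 weeks of age and had a high fat diet for 4 days, with intraperitoneal injections on days 0 and 2 of either αGalCer (100 ng per g body weight) or pyridine, its vehicle. Fat was collected on day 4, at 6.5 weeks. Wild type fat was measured on 3 arrays after vehicle and 4 after αGalCer, and knockout fat on 3 arrays after each. The diet was common to all groups, so no group shows these genes on ordinary chow. The knockout is a whole-body deletion, and its strain name records a second mouse strain of origin that the wild type name does not. Arrays within a group are labelled as replicates without a statement that each came from a different mouse, so p-values measure only spread between samples, and that spread may be technical.

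Imprinted genes are transcribed mainly from the copy inherited from 1 parent, under the control of DNA methylation set in the egg or sperm. Many act on fetal growth, and several are known in fat. Mest marks expanding adipocytes, Dlk1 (Pref-1) holds preadipocytes back from differentiation, and Nnat encodes a small proteolipid of the endoplasmic reticulum that is found in brain, islets and fat. Zim1, H19 and, in most tissues outside the brain, Grb10 are expressed from the maternal copy, and the other 7 genes from the paternal copy. The arrays measure both copies together, so no value here says which parental copy was transcribed.

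Promoter sequences show how these genes differ at their starts, and 4 are printed because they belong to the genes with the deepest falls and to Grb10, the most CpG-rich case. RefSeq (GRCm38.p6) gave 15 promoter windows for the 9 measured genes, each with 250 bases before and 50 after a transcription start. The 250 bases before the start are shown 5′ to 3′ along the gene, in lower case, with any match to GGGGCCCC (a motif bound by PLAGL1) or GGGCGG (the GC box) on either strand in capitals.
Nnat, chr2:157559828-157560077, plus strand: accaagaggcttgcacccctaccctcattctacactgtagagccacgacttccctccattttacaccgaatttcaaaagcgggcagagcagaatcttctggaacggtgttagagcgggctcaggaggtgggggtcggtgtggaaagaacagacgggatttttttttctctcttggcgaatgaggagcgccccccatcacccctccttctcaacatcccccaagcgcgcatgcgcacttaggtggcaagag
Peg3, chr7:6730420-6730669, minus strand: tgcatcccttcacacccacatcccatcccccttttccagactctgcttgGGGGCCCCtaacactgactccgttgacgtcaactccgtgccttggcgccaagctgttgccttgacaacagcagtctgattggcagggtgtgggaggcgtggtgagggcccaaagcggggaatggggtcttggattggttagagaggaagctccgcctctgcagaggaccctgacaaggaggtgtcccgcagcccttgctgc
Mest, chr6:30737800-30738049, plus strand, the second of its windows: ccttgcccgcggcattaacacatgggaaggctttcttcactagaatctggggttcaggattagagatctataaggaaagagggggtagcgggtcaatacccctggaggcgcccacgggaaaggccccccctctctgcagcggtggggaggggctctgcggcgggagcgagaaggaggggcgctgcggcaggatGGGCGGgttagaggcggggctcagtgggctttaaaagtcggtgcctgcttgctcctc
Grb10, chr11:12037421-12037670, minus strand, the first of its windows: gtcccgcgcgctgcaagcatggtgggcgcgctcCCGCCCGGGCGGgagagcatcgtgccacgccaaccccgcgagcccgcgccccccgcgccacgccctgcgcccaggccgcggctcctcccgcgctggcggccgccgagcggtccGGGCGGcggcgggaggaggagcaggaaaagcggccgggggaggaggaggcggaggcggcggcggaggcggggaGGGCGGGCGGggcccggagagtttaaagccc
In the full windows of 300 bases, Nnat held 17 CpG dinucleotides, Peg3 13, Mest 17 and Grb10 45, against a median of 7 over 32817 mouse windows. The Grb10 window stood at the 98.1 percentile for CpG. GGGGCCCC was found in the Peg3 window alone among the 15, and in 1.07% of all windows. The GC box was found in 9 of the 15 windows, belonging to 6 genes, and in 35.6% of all windows. GCCATNTT, a motif bound by YY1, was in none of the 15 and in 6.04% of all windows, counting both strands. GGGGCCCC reads the same on both strands and was counted once per position. These matches describe letters in a window and do not show binding.

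The libraries carried the genotype they were labelled with. The targeted gene Cd1d1 had group means of 10.69 ± 0.15 (SD, n = 3; wild type, vehicle), 9.63 ± 0.40 (SD, n = 4; wild type, αGalCer), 3.73 ± 0.29 (SD, n = 3; knockout, vehicle) and 3.14 ± 0.47 (SD, n = 3; knockout, αGalCer). All values are log2 RMA values per probe set, deposited by the authors, on which a step of 1 is a doubling. Adipocyte markers were high in all 13 arrays, with a mean over 10 markers of 10.29 to 12.26. Some arrays held transcripts of other tissues. Skeletal muscle markers averaged 7.71 and 6.30 in knockout vehicle replicates 1 and 2 and 8.05 in knockout αGalCer replicate 3, and 4.69 to 5.55 in the wild type arrays. The mean of the epididymis markers was 5.01 on the third wild type vehicle array and 3.69 to 4.15 elsewhere. Adam7 alone carried this, at 9.34 on that array, where Lcn8 read 3.77, Lcn9 4.20, Rnase10 3.53 and Cst11 4.23. Cyp17a1, a Leydig cell marker, read 8.23 on the same array and 4.27 to 4.97 elsewhere. Ciliated and ductal epithelium markers averaged 6.67 in knockout vehicle replicate 1. They were also raised in wild type vehicle replicates 1 and 3, at 5.93 and 5.80. Wild type vehicle replicate 2 had 4.83, and the 4 wild type arrays after αGalCer had 4.50 to 4.74. The part of these tissues in the imprinted genes was not tested beyond leaving those arrays out.

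In wild type fat, 7 of the 8 imprinted genes other than Nnat fell after αGalCer at an adjusted p under 0.05, where 22% of all genes were called lower and 19.8% higher. Nnat is left out of these counts because it was chosen for its fall in this contrast. The other 8 were also chosen with earlier results of these data known, so their calls are no independent support. All 4 arrays after αGalCer lay below all 3 vehicle arrays for each of the 8 genes, where 25% of all genes did so. Their median change was -1.60 on the log2 scale, against -0.02 over all genes. With Nnat included, the changes ran from -4.07 to -0.52, the latter in Dlk1, which did not pass the test. In this bulk tissue, fewer cells of a type and less RNA per cell cannot be told apart.

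**Figure D1:**
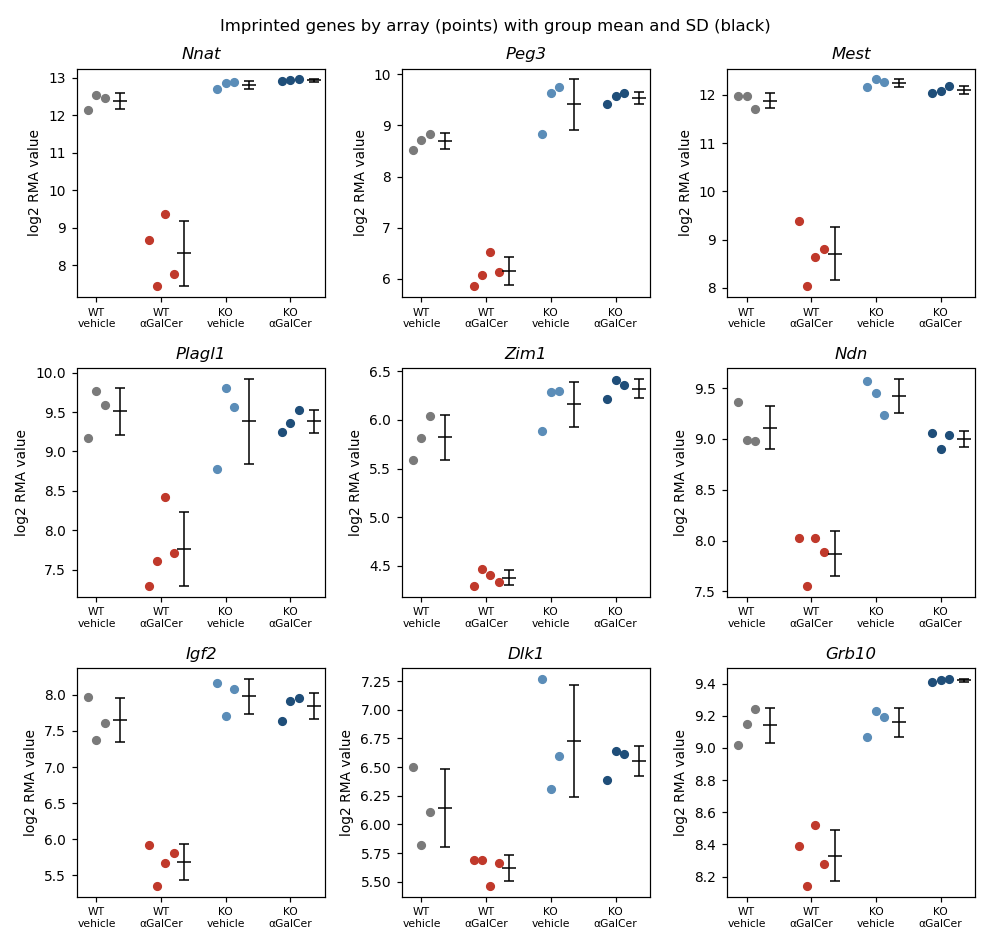
Log2 RMA value of each of the 9 imprinted genes on each array (points), by genotype (WT wild type, KO CD1d knockout) and injection, with the group mean and SD in black; each panel has its own axis, which does not start at 0. The 4 wild type arrays after αGalCer are below the 3 wild type vehicle arrays in every panel; no knockout array is as low as those 4 in any panel.

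Nnat read 12.13, 12.54 and 12.46 in the 3 wild type vehicle arrays and 8.67, 7.43, 9.36 and 7.77 in the 4 arrays after αGalCer. The vehicle arrays lay close together and the arrays after αGalCer were widely spread, with replicate 2 lowest and replicate 3 highest. The group mean went from 12.38 ± 0.22 (SD, n = 3) to 8.31 ± 0.88 (SD, n = 4), a difference of -4.07 ± 0.34 (SE), or 16.8-fold lower. No test is given, since this contrast chose the gene.

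Mest, an enzyme of the α/β hydrolase fold family, read 11.98, 11.97 and 11.70 after vehicle and 9.38, 8.03, 8.64 and 8.80 after αGalCer. The groups were far apart, and replicate 2 was again lowest. Mest fell by 3.17 ± 0.22 (limma adjusted p = 2.49e-07) and ranked 17 among the falls of 18818 genes.

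The zinc finger genes followed. Peg3, a zinc finger protein, read 8.52, 8.71 and 8.83 after vehicle and 5.85, 6.08, 6.52 and 6.14 after αGalCer. It fell by 2.54 ± 0.20, or 5.82-fold (limma adjusted p = 6.94e-07), and ranked 60. Its 4 arrays after αGalCer had an SD of 0.28, against 0.88 for Nnat.
Zim1, the zinc finger gene next to Peg3, read 5.59, 5.81 and 6.04 after vehicle and 4.29, 4.47, 4.41 and 4.34 after αGalCer. It fell by 1.44 ± 0.13 (limma adjusted p = 1.79e-06). RMA is known to compress dim probe sets, which may understate a fall to a low level.
Plagl1, a zinc finger transcription factor also called ZAC1 and known to act on other imprinted genes, read 9.17, 9.76 and 9.59 after vehicle and 7.29, 7.61, 8.42 and 7.71 after αGalCer. Its fall was 1.75 ± 0.27 (limma adjusted p = 0.000142), with replicate 3 standing highest among the treated arrays.

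The growth factor and signalling genes moved the same way. Igf2, insulin-like growth factor 2, read 7.97, 7.37 and 7.61 after vehicle and 5.92, 5.35, 5.67 and 5.81 after αGalCer, and fell by 1.96 ± 0.17, or 3.90-fold (limma adjusted p = 1.42e-06). A second probe set, annotated to both Igf2 and its antisense transcript Igf2os, did not show this, at 6.11 ± 0.20 (SD, n = 3) after vehicle and 6.11 ± 0.09 (SD, n = 4) after αGalCer, so the probe sets disagree.
Grb10, an adaptor that restrains the insulin and IGF1 receptors, read 9.02, 9.15 and 9.24 after vehicle and 8.39, 8.14, 8.52 and 8.28 after αGalCer. The gap between the groups was narrow but free of overlap, and Grb10 fell by 0.80 ± 0.09, or 1.74-fold (limma adjusted p = 1.39e-05).
Ndn, necdin, a growth suppressor of the MAGE family, read 9.36, 8.99 and 8.98 after vehicle and 8.03, 7.55, 8.03 and 7.89 after αGalCer. It fell by 1.24 ± 0.13 (limma adjusted p = 7.49e-06).

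Dlk1 did not pass the threshold. It read 6.50, 5.82 and 6.11 after vehicle and 5.69, 5.69, 5.46 and 5.66 after αGalCer, with the lowest vehicle array only just above the treated arrays. The difference was -0.52 ± 0.21 (limma adjusted p = 0.0609), and 8 of 24 alternative settings called it, with values from -0.68 to -0.34. Without wild type vehicle replicate 2 it was -0.68 (limma adjusted p = 0.0286), and without wild type vehicle replicate 1 it was -0.34 (limma adjusted p = 0.254).

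In CD1d knockout fat the injection left no call among the 9 genes, and none among all 18818 genes (0% called by limma; 1281 genes, or 6.81%, had an unadjusted p under 0.05, and 322 were called when limma weighted the arrays). Nnat read 12.69, 12.87 and 12.88 after vehicle and 12.91, 12.93 and 12.97 after αGalCer. The difference was 0.12 ± 0.36, with a 95% interval of -0.67 to 0.91 (limma adjusted p = 0.947). This SE pools the spread of all 4 groups. The SD of Nnat was 0.11 and 0.03 in the knockout groups and 0.88 in the wild type arrays after αGalCer. The interval and p-value of Nnat thus do not measure the spread of the knockout arrays alone. Peg3 read 8.83, 9.63 and 9.76, then 9.41, 9.58 and 9.64, and Mest 12.16, 12.32 and 12.26, then 12.03, 12.09 and 12.19. For Peg3 the difference was 0.13 ± 0.22, with an interval of -0.34 to 0.61 (limma adjusted p = 0.891). That of Mest was -0.14 ± 0.24, with an interval of -0.66 to 0.37 (limma adjusted p = 0.891). The Peg3 and Mest intervals do not reach the wild type falls of these genes.

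The remaining genes were close between the injections as well. Plagl1 read 8.78, 9.80 and 9.56, then 9.25, 9.36 and 9.52, and Zim1 5.89, 6.29 and 6.30, then 6.21, 6.41 and 6.36. Igf2 read 8.16, 7.70 and 8.08, then 7.63, 7.91 and 7.96, and Dlk1 7.27, 6.31 and 6.60, then 6.39, 6.64 and 6.61. Their differences ran from -0.18 in Dlk1 to 0.16 in Zim1.
Ndn and Grb10 separated by injection without being called. Ndn read 9.57, 9.45 and 9.23, then 9.06, 8.90 and 9.04, a difference of -0.42 ± 0.14 (limma adjusted p = 0.72; -0.45 and 0.0389 with array weights). Grb10 read 9.07, 9.23 and 9.19, then 9.41, 9.42 and 9.43, a difference of 0.26 ± 0.10 (limma adjusted p = 0.72). Its knockout arrays were higher after αGalCer than after vehicle, and its wild type arrays lower. Groups that do not overlap were found in 3 of the 9 genes (Ndn, Grb10 and Nnat), where 13.8% of all genes had them.

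**Figure D2:**
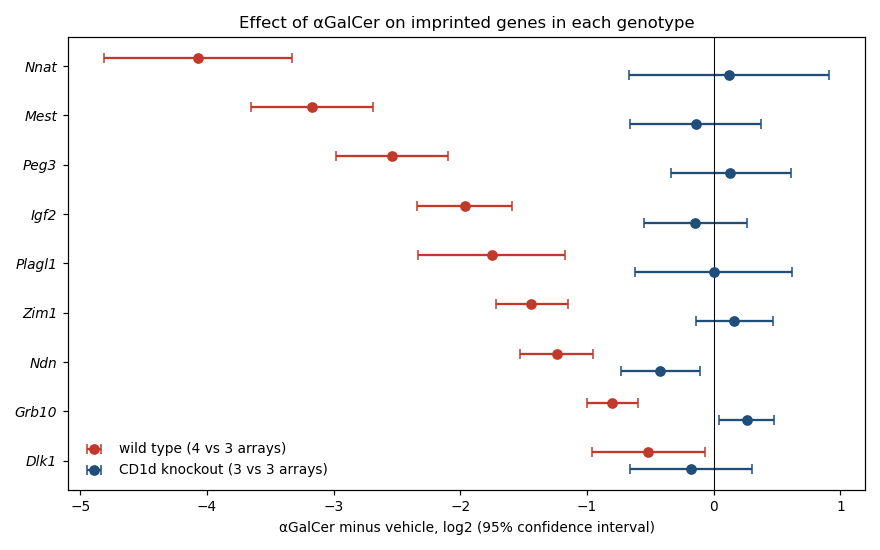
αGalCer minus vehicle in wild type (red, 4 against 3 arrays) and CD1d knockout (blue, 3 against 3 arrays) for the 9 imprinted genes, as log2 differences with 95% confidence intervals. Wild type differences run from -4.07 (Nnat) to -0.52 (Dlk1), while knockout differences run from -0.42 (Ndn) to 0.26 (Grb10).

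The change in wild type differed from that in knockout for 7 of the 8 genes other than Nnat, where 14.3% of all genes were called positive for the knockout effect minus the wild type effect. The 2 effects share no arrays, but this contrast and the wild type change do. The differences of effects were 3.03 ± 0.32 for Mest (limma adjusted p = 2.89e-05), 2.67 ± 0.30 for Peg3 (limma adjusted p = 3.94e-05) and 1.82 ± 0.25 for Igf2 (limma adjusted p = 0.000172). Plagl1 (1.75 ± 0.39), Zim1 (1.60 ± 0.19), Grb10 (1.06 ± 0.14) and Ndn (0.82 ± 0.20) were also called. Dlk1, at 0.34 ± 0.30, was not (limma adjusted p = 0.486, interval -0.32 to 0.99). That of Nnat was 4.19 ± 0.50, given as a description.

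After vehicle, no measured imprinted gene was called between the genotypes, where 0.112% of all genes (21) were called either way. The knockout mean was the higher for all 9 genes except Plagl1, with a median difference of 0.35 over the 9, against 0.02 over all genes. Peg3, Nnat and Mest were higher in all 3 knockout arrays than in all 3 wild type arrays, where 11.2% of genes separated in either direction. Peg3 did so by less than the rounding of its printed values. Peg3 was 0.72 ± 0.22 higher, with a 95% interval of 0.25 to 1.20 (limma adjusted p = 0.436; 0.88 and 0.00881 with array weights). Dlk1, whose groups overlapped, was 0.58 ± 0.22 higher, with an interval of 0.11 to 1.06 (limma adjusted p = 0.602). Nnat was 0.44 ± 0.36 higher (limma adjusted p = 0.876) and Mest 0.36 ± 0.24 higher (limma adjusted p = 0.835). The SEs of Nnat and Mest also pool their wild type arrays after αGalCer (SD 0.88 and 0.55), which are not compared here. Knockout vehicle replicate 1 had the highest epithelial marker mean and also held muscle transcripts. It was the lowest of its group for 6 of the 9 genes and the highest for 3, among them Dlk1.
After αGalCer, all 8 genes other than Nnat were higher in knockout than in wild type fat, where 21.9% of genes were called higher. The largest was Peg3, at 3.40 ± 0.20 (limma adjusted p = 1e-07), followed by Mest at 3.39 ± 0.22 (limma adjusted p = 1.6e-07), Igf2 at 2.15 ± 0.17 and Zim1 at 1.95 ± 0.13. Plagl1 was 1.62 ± 0.27 higher, Ndn 1.12 ± 0.13 and Grb10 1.09 ± 0.09. Dlk1, uncalled in the wild type change, was 0.92 ± 0.21 higher (limma adjusted p = 0.00257). Nnat differed by 4.63 ± 0.34, as a description. This contrast uses the same wild type arrays after αGalCer as the wild type change.

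The miRNAs inside these genes are short, and their hairpin probe sets were looked up after the genes' values had been seen. Their mature sequences are given 5′ to 3′ from RefSeq (GRCm38.p6) with the seed, bases 2 to 8, in capitals, to show that no 2 of them share a seed.
mmu-miR-335-5p: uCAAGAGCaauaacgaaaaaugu
mmu-miR-335-3p: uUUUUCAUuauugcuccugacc
mmu-miR-675-5p: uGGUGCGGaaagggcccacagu
mmu-miR-675-3p: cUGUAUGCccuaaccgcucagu
mmu-miR-483-5p: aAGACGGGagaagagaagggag
mmu-miR-483-3p: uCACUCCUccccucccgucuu
The Mir335 hairpin lies in Mest, Mir675 in H19 and Mir483 in Igf2. Mir335 was not called in wild type, reading 5.02, 4.92 and 5.00 after vehicle and 4.99, 5.01, 4.82 and 4.85 after αGalCer (-0.06 ± 0.11, limma adjusted p = 0.726). Mir483 changed by -0.09 ± 0.15 (limma adjusted p = 0.677) and Mir675 by 0.25 ± 0.17 (limma adjusted p = 0.291). After αGalCer, Mir335 was 0.63 ± 0.11 higher in knockout than in wild type (limma adjusted p = 0.000614), and Mir675 0.54 ± 0.17 higher (limma adjusted p = 0.0246). The labelling was not made for small RNAs, so these hairpin values need not reflect the mature miRNAs.

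Imprinted genes lie in clusters. Of 22 other genes measured in the 8 clusters that hold the 9 genes, 4 fell in wild type after αGalCer, 3 rose and 15 were not called, shares near the 22% and 19.8% of all genes called lower and higher. Among those not called, 7 were dim on every array (Usp29, Magel2, Mkrn3, Dio3, Ins2, Th and Rian, 3.04 to 5.11), so a fall may be understated in them. Mkrn3 still read lower on every wild type array after αGalCer than on every vehicle array. Nnat lies in an intron of Blcap on the opposite strand. Blcap read 8.29, 8.28 and 8.30 after vehicle and 7.40, 6.95, 6.99 and 7.03 after αGalCer, a fall of 1.20 ± 0.12 (limma adjusted p = 3.17e-06), less than that of Nnat. Ctnnbl1, beside Blcap, rose by 0.29 ± 0.09 (limma adjusted p = 0.025).
Usp29, which shares a start region with Peg3, read 0.03 ± 0.08 (limma adjusted p = 0.826), and Copg2, which overlaps Mest, fell by 0.38 ± 0.09 (limma adjusted p = 0.00456). Klf14 (-0.18 ± 0.14) and Cep41 (0.20 ± 0.11) near Mest were not called, nor were Phactr2 (-0.38 ± 0.18) and Ltv1 (0.14 ± 0.13) near Plagl1. The paternally expressed neighbours of Ndn were also uncalled, with Magel2 at 0.03 ± 0.14, Peg12 at 0.05 ± 0.14 and Mkrn3 at -0.36 ± 0.14 (limma adjusted p = 0.0609). Ube3a, the ubiquitin ligase of that cluster, was at -0.25 ± 0.28.
In the Igf2 cluster, Mrpl23 rose by 0.43 ± 0.13 (limma adjusted p = 0.0149) and the leukocyte gene Lsp1 by 0.86 ± 0.13 (limma adjusted p = 0.000145). Ins2 (-0.14 ± 0.12), Th (-0.14 ± 0.13) and the muscle gene Tnnt3 (0.49 ± 0.95) were not called. Meg3, the maternal noncoding RNA of the Dlk1 cluster, read 8.42, 9.02 and 8.93 after vehicle and 7.80, 8.14, 8.51 and 8.24 after αGalCer, so its groups overlapped, and it fell by 0.62 ± 0.20 (limma adjusted p = 0.0214). In knockout fat it was 0.64 ± 0.21 higher (limma adjusted p = 0.72), and the effects differed by 1.26 ± 0.29 (limma adjusted p = 0.00493). Rian (-0.02 ± 0.22) and Dio3 (0.13 ± 0.20) were not called. Beside Grb10, Cobl fell by 1.05 ± 0.20 (limma adjusted p = 0.000906) and Ddc was at -0.78 ± 0.41 (limma adjusted p = 0.153).

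Other imprinted genes changed less uniformly. Of 52 listed, 40 were measured, and in wild type after αGalCer 13 fell (32.5%), 5 rose (12.5%) and 22 were not called, with a median of -0.23. Against this, 22% and 19.8% of all genes fell and rose, with a median of -0.02. None was called in knockout fat.
Of 17 measured genes listed as paternally expressed, 3 fell and 1 rose, with a median of -0.14. Sgce, a dystrophin-complex sarcoglycan, fell most, from 10.32, 10.42 and 10.27 to 9.19, 8.76, 9.34 and 9.20, a fall of 1.21 ± 0.14 (limma adjusted p = 1.58e-05). Airn, antisense to Igf2r (-0.66 ± 0.20), and Zdbf2 (-0.45 ± 0.15) also fell, and Sfmbt2, a Polycomb-group gene, rose by 0.69 ± 0.11 (limma adjusted p = 0.000145).
Of 23 measured genes listed as maternally expressed, 10 fell and 4 rose, with a median of -0.28. After Blcap, the deepest falls were in Ppp1r9a (-1.06 ± 0.14) and the proteoglycan decorin (Dcn, -0.97 ± 0.12), and the cell cycle inhibitor Cdkn1c fell by 0.65 ± 0.09. Gatm, which makes the creatine precursor and is imprinted mainly in placenta, rose from 8.25, 8.97 and 8.63 to 11.63, 11.81, 11.44 and 11.36. That was a rise of 2.95 ± 0.16 (limma adjusted p = 5.92e-08), and in knockout fat the difference was -0.04 ± 0.17. Asb4 (1.78 ± 0.15), Ascl2 (0.75 ± 0.21) and Igf2r (0.25 ± 0.08) rose as well. Dcn, Gatm and Slc22a2 are known as imprinted chiefly in placenta, so being on the list does not mean that they are imprinted in fat.

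**Figure D3:**
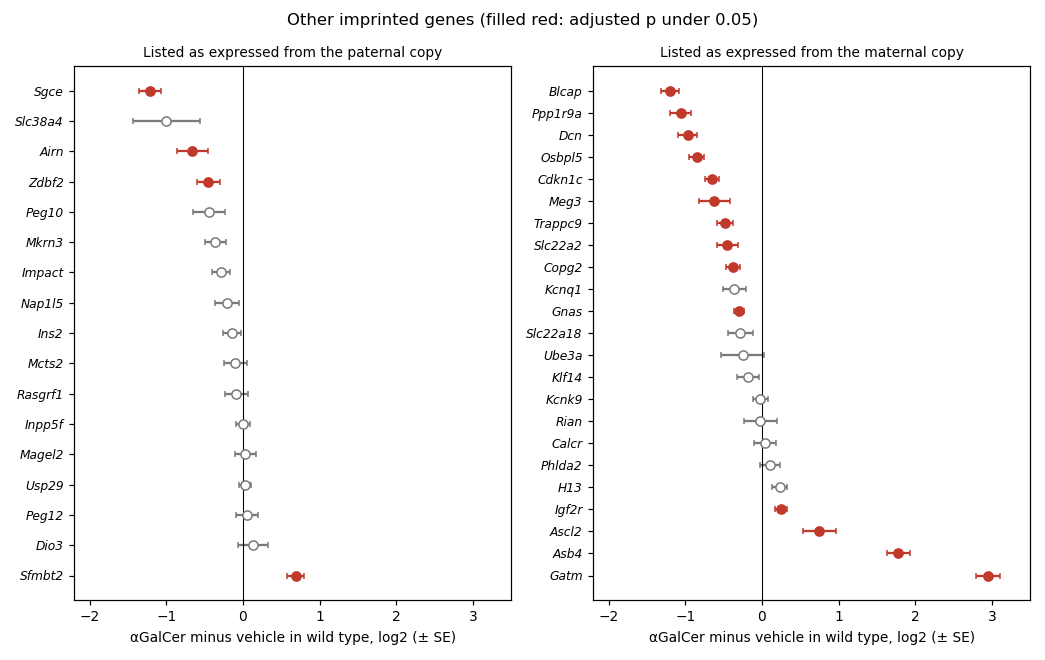
αGalCer minus vehicle in wild type fat (log2, points, with bars of 1 SE; 4 against 3 arrays) for 17 imprinted genes listed as paternally expressed and 23 as maternally expressed, without the 9 genes above; filled red marks an adjusted p under 0.05. The values run from -1.21 (Sgce) to 2.95 (Gatm), and 22 of 40 genes are not filled.

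Among 18 measured genes that set, keep or remove imprints, 9 rose, 2 fell and 7 were not called in wild type, with a median of 0.29, where 19.8% of all genes rose and 22% fell. Uhrf1 (1.89 ± 0.13, limma adjusted p = 2.26e-07), which brings DNMT1 to DNA at replication, the chromatin remodeller Hells (1.85 ± 0.24) and the maintenance methyltransferase Dnmt1 (1.48 ± 0.11, limma adjusted p = 3.38e-07) rose most. Tet1, which oxidises methylated cytosine, fell by 1.01 ± 0.15 (limma adjusted p = 9.17e-05), and Ctcfl by 0.28 ± 0.10, a call that 13 alternatives lost. Ctcf, which insulates imprinted regions, rose by 0.23 ± 0.08, a call that 7 lost, and Zfp57, which guards their methylation, was at -0.44 ± 0.20 (limma adjusted p = 0.0936).

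In the IGF and insulin list that surrounds Igf2 and Grb10, 11 of 17 measured genes fell and 2 rose, with a median of -0.95, where 22% of all genes fell and 19.8% rose. The IGF binding protein Igfbp5 fell by 2.09 ± 0.13 (limma adjusted p = 1.24e-07), the docking protein Irs1 by 1.44 ± 0.10, the insulin receptor Insr by 1.15 ± 0.09 and Igf1r by 0.95 ± 0.15. Igf2bp3, an mRNA-binding protein that acts on Igf2, rose by 1.57 ± 0.12 (limma adjusted p = 4.14e-07), and Igf2r, which clears IGF2, rose by 0.25 ± 0.08 (limma adjusted p = 0.0267), a call that 7 alternatives lost.
DLK1 is a Notch-like protein, so 13 genes in or around the Notch pathway were listed with it. Of these, 10 fell and 2 rose, with a median of -1.19 against -0.02 over all genes. The ligand Dll4 fell by 2.01 ± 0.21 (limma adjusted p = 6.04e-06), and Adam17, the protease that sheds DLK1, rose by 0.94 ± 0.14 (limma adjusted p = 9.93e-05). All 6 genes listed with Mest in fat expansion fell, where 22% of all genes did, with a median of -1.32, among them the WNT antagonist Sfrp5 (-1.83 ± 0.36, limma adjusted p = 0.00096).

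Cell type markers moved in the same wild type arrays, where 22% of all genes were called lower and 19.8% higher. All 10 adipocyte markers fell in wild type after αGalCer, with a median of -1.0 and Slc2a4, the glucose transporter GLUT4, lowest at -2.66 ± 0.23 (limma adjusted p = 1.29e-06). Their mean per array was 12.03 to 12.14 after vehicle and 10.29 to 11.03 after αGalCer, against 12.16 to 12.26 and 12.16 to 12.19 in knockout fat. Among the imprinted genes other than Nnat, Mest alone fell further than every adipocyte marker. Nnat did so too, which its choice as the deepest fall of all genes had fixed in advance.
Fibroblast and progenitor markers fell in 7 of 9 cases, with a median of -0.80 and lumican (Lum) lowest at -2.04 ± 0.24, and with array means of 9.74 to 10.17 after vehicle and 8.93 to 9.45 after αGalCer. All 6 endothelial markers fell, with a median of -1.51 and the VEGF receptor Kdr lowest at -2.57 ± 0.10, and their means were 9.99 to 10.11, then 8.33 to 8.65.
Macrophage and T cell markers rose in 7 of 7 and 5 of 5 cases, with medians of 1.82 and 2.10. Their array means went from 8.44 to 9.16 up to 10.55 to 10.77, and from 4.99 to 5.18 up to 7.50 to 7.96, led by Fcgr1 (3.60 ± 0.23) and Cd3g (3.59 ± 0.19). Their part in the fall of the imprinted genes was not tested.

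Markers of tissues that dissection could add were counted against the same 22% of all genes called lower. Of 6 mesothelial markers 2 fell (Upk3b by 1.11 ± 0.20), with a median of -0.59, and of 5 epididymis markers 1 fell (Lcn8 by 0.35 ± 0.10). Of 9 markers of ciliated and ductal epithelium 4 fell (Epcam by 2.41 ± 0.72, with -2.19 ± 0.77 in knockout), with a median of -0.75, and their part in the imprinted genes was not tested. None of 10 muscle markers was called, with Actn3 at -0.73 ± 0.69 (limma adjusted p = 0.448). Of 3 Leydig cell markers 1 rose (Star by 0.97 ± 0.29), and Cyp17a1 was high on wild type vehicle replicate 3 alone. Nnat is also a gene of neurons. Of 7 neuron and glia markers listed, 4 were measured and none was called. Syt1 was at -0.16 ± 0.09 (limma adjusted p = 0.172), and the array means were 4.77 to 5.11. Snap25, Syt1 and S100b were dim already after vehicle in wild type, with means of 4.46, 4.46 and 4.58. A fall may be understated in them, so these markers cannot show whether nerve content changed.
Within the 4 wild type arrays after αGalCer, replicate 2 was the lowest for 5 of the 9 genes and also for the adipocyte, fibroblast and endothelial markers. Replicate 3, highest for 5 of the 9 genes, was also highest for the adipocyte markers.

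**Figure D4:**
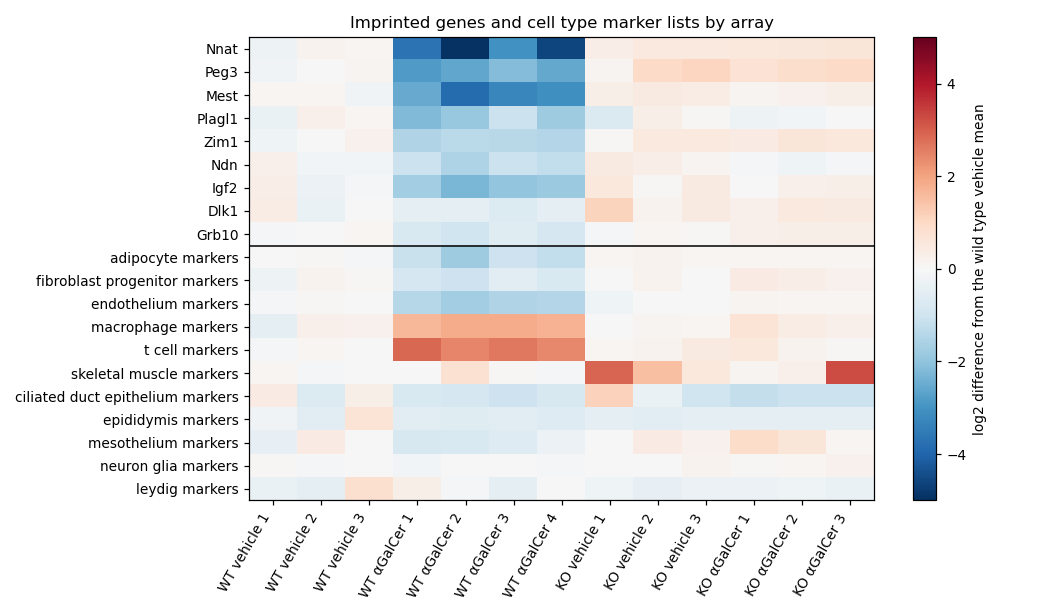
Heat map of the 9 imprinted genes (rows above the line) and the mean of each cell type marker list (rows below) on each of the 13 arrays (columns; WT wild type, KO CD1d knockout), as the log2 difference from the wild type vehicle mean, with blue lower and red higher. The 4 wild type arrays after αGalCer are blue for the imprinted genes and for adipocyte, fibroblast and endothelial markers and red for macrophage and T cell markers, while the muscle row is red in knockout vehicle 1 and 2 and knockout αGalCer 3.

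Genes with the most similar profile were found by the root mean square difference of their log2 values over the 13 arrays, each gene centred on its own mean. Nearest to Nnat were Cyp2e1 (0.53), the oxytocin receptor Oxtr (0.54), Thrsp (0.57), Inmt (0.60) and Mest (0.63). Their wild type changes were -2.96, -3.42, -3.30, -3.58 and -3.17. Nearest to Peg3 were Lyz1 (0.28), Bche (0.29), Negr1 (0.31), Acsm5 (0.32) and Pcsk6 (0.32), with changes of -2.39, -2.84, -3.10, -2.48 and -2.02. They are named for their likeness, so no test is given. Lyz1 has a near-identical copy in Lyz2, so which of them was measured is uncertain.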

How the data were processed

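RNA of 13 epididymal fat samples was hybridised to Affymetrix gene arrays, from 100 ng of total RNA with an RNA integrity number above 8.0, per the labels' protocols. The authors deposited log2 values per probe set, made with RMA (background correction, quantile normalisation and probe summary) per the submitters' processing notes. For software version, chip description and genome build, a value is not given in the sources used here. Scan batch was not tested. Of 35556 probe sets, 21218 had exactly 1 symbol in the platform annotation. Entrez identifiers updated the symbols through RefSeq names (GRCm38.p6), which matched 21185 of them (3 more matched by accession, and 30 kept their symbol). The set with the highest mean stood for each of the 1388 genes with several. This gave 18818 genes with no filter on dim ones.

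One limma model (3.58.1, R 4.3.3) fitted the 4 group means over all 13 arrays with 9 residual degrees of freedom and trended eBayes. Every adjusted p is two-sided, from this model, by Benjamini-Hochberg over all genes, with calls under 0.05. A ± after a change is its SE, which pools the spread of all 4 groups. Intervals are at 95% confidence. The number of arrays limits the precision.

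The imprinted genes and all lists (other imprinted genes, clusters, imprint control, IGF and insulin, Notch, fat expansion, cell type markers) were chosen with earlier results of these data known, so their p-values are no independent support. The 9 genes and their cluster neighbours were named whatever their p. From other lists the largest called rises and falls were named, or the smallest p where none was called. Further list members were named as examples after their values were seen. Replicate numbers were checked for pairing by the correlation of deviations from group means. Of 18 same-numbered pairs, 5 exceeded 0.1, with a range of -0.2 to 0.48 and a median of 0.02. Pairs with different numbers had the same median and reached 0.46, so the numbers were not taken to pair samples. Replicate 1 of wild type vehicle, wild type αGalCer and knockout vehicle correlated at 0.3 to 0.48 with each other. The cause was not tested. The model was tested on simulated data.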

Additional observations from a re-analysis of the deposited data

Results flagged for a closer look

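In the 4 wild type arrays after αGalCer, 1 array lay apart from the other 3 for 5 of 68 named genes, by the gap to the nearest array as a share of the whole range, against Dixon's 95% critical value. Chance flags about 1 gene in 20. Dlk1 had a share of 0.857, with replicate 3 lowest at 5.46 and the others at 5.66 to 5.69. The shares were 0.955 for Ube3a, 0.932 for Th, 0.837 for Rian and 0.834 for Actn3.

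The effect of αGalCer differed between the genotypes for 43 named genes, Nnat among them, as the knockout effect minus the wild type effect on the log2 scale. Over all 18818 genes, 5309 were called for this difference, and 14.3% of all genes were called positive. Some of the 43 were named for large wild type changes, which share arrays with it. For Nnat (4.19) the difference was not tested. Every wild type array after αGalCer lay below the wild type vehicle arrays. Every knockout array after αGalCer lay above the knockout vehicle arrays, with a difference of means of 0.12 ± 0.36. For the other genes limma's test of the difference called it. Among the imprinted genes followed here it was 3.03 for Mest, 2.67 for Peg3, 1.82 for Igf2, 1.75 for Plagl1, 1.60 for Zim1, 1.06 for Grb10 and 0.82 for Ndn. Cluster neighbours had 1.26 (Meg3), 1.16 (Blcap), 1.06 (Cobl), 0.39 (Copg2), -0.69 (Mrpl23) and -0.59 (Lsp1). Other imprinted genes named in the text had 1.35 (Sgce), 1.07 (Ppp1r9a), 1.03 (Dcn), 0.99 (Airn), 0.67 (Cdkn1c), -0.67 (Sfmbt2), -1.09 (Ascl2), -1.63 (Asb4) and -2.99 (Gatm). In the function lists, Uhrf1 had -2.02, Hells -1.84, Dnmt1 -1.53, Tet1 1.15, Zfp57 0.94, Irs1 1.43, Insr 1.18, Igf1r 0.81, Igf2bp3 -1.44, Igfbp5 2.06, Adam17 -0.67, Dll4 2.14 and Sfrp5 1.96. Among cell type markers, Slc2a4 had 2.50, Lum 2.42, Kdr 2.71, Fcgr1 -3.18, Cd3g -3.49, Lcn8 0.45 and Upk3b 1.25. The call was lost in 13 alternatives for Copg2, 10 for Lsp1, 9 for Lcn8, 5 for Adam17, 4 each for Zfp57 and Airn, and 1 each for Sfrp5, Sfmbt2, Mrpl23 and Ascl2.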

How the results depend on the processing

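Under 24 alternatives (variance model, dim genes, normalisation, array weights, arrays in the model, probe sets, the replicate number, the 3 knockout arrays with muscle transcripts left out, and each of 13 arrays left out), 1049 of 1071 values of the 9 imprinted genes were counted as kept. This means the same direction and side of the threshold or, for the untested contrasts of Nnat, a shift below the pooled SD. Plagl1 in knockout fat, at -0.00, had no sign to keep and ran from -0.38 to 0.21, uncalled throughout. No call was lost, 11 values passed the threshold, and 11 that were uncalled throughout changed sign. These were, in knockout fat, Peg3 (-0.08 with array weights, -0.27 without the muscle arrays, -0.15 to 0.31 with 1 array left out), Igf2 (0.07 with array weights) and Dlk1 (0.18 with array weights, -0.39 to 0.09 with 1 array left out). After vehicle they were Plagl1 (0.14 with array weights, 0.05 without the muscle arrays, -0.34 to 0.17 with 1 array left out) and Grb10 (-0.03 to 0.07 with 1 array left out). Among other named genes, 2152 of 2282 values were kept, 15 passed, 100 lost their call and 15 uncalled ones changed sign. In wild type, Usp29 became -0.03 and Magel2 -0.02 with arrays centred on their median, Usp29 -0.01 with the block, and Rian 0.02 with cyclic loess. With 1 array left out, Usp29 ran from -0.01 to 0.06, Magel2 from -0.06 to 0.10, Peg12 from -0.03 to 0.10, Ins2 from -0.23 to 0.03, Th from -0.26 to 0.03 and Rian from -0.24 to 0.22. Gatm in knockout fat became 0.07 without the muscle arrays and -0.12 to 0.06 with 1 array left out. The count of genes called in knockout fat was 0, but 322 with array weights, 2 without the 3 arrays with muscle transcripts and 0 to 2 with 1 array left out (2 without knockout vehicle replicate 3). With array weights 1 imprinted gene, Ndn, was called lower there. The count of 21 genes between genotypes after vehicle became 169 with array weights, 4 with only the 2 groups compared, 1 without the muscle arrays, and 11 (without wild type vehicle replicate 3) to 35 (without wild type αGalCer replicate 2) with 1 array left out. With array weights 1 imprinted gene, Peg3, was called higher after vehicle. The cause was not tested. With the replicate number as a block, 7766 genes were called for αGalCer in wild type (7881 without), 0 in knockout fat and 5461 for the difference of effects (5309 without), and 7 of the 8 imprinted genes other than Nnat fell; the block changed no call of the 9 genes. Rescaling the arrays moved the median wild type change of all genes to between -0.072 and 0.007.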
